A study of Caenorhabditis elegans with 123 samples.

Results

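The effect of RNA interference against pal-1 was measured in pie-1 mutant embryos of the nematode Caenorhabditis elegans, 186 min after the 4-cell stage at 22 °C. The comparison used 7 Affymetrix arrays, chosen by their labelled genotype and time from a series that holds 34 arrays of N2, 28 of mex-3/skn-1, 27 of pie-1 and 34 of pie-1/pal-1 embryos at 10 time points. Here pie-1/pal-1 stands for the labelled genotype pie-1(zu154); pal-1(RNAi), with 4 arrays of replicate numbers 1 to 4 at this time. The genotype pie-1(zu154) has 3, numbered 2 to 4. Both groups carry the zu154 allele of pie-1, so the only labelled difference between them is the RNA interference. At the same time point, 3 arrays of N2, the wild-type strain, and 4 of mex-3/skn-1, which stands for mex-3(zu155); skn-1(RNAi), served as a reference for levels. The labels describe staged embryos and total RNA. They do not say whether arrays of a group came from separate pools, so the p-values measure the spread between arrays, which may be technical. All 22548 probe sets that are not array controls were tested.

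PAL-1 is a homeodomain protein of the caudal family. Its messenger RNA is maternal, its translation is held back in anterior blastomeres, and in the C and D founder cells PAL-1 switches on regulators of body muscle and epidermis. PIE-1 is a zinc finger protein that keeps transcription silent in the germline blastomeres, and in its absence the germline precursor P2 takes on the fate of its sister EMS, which makes endoderm and pharynx under control of SKN-1. The comparison therefore asks what RNA interference against pal-1 adds to the loss of PIE-1.

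At 186 min 49 probe sets, 0.217% of those tested, were higher in pie-1/pal-1 than in pie-1 embryos and 4, or 0.0177%, were lower. A probe set was called at an adjusted p under 0.05 in limma's moderated test and a difference of at least 2-fold, and an unadjusted p under 0.05 was reached by 2915 probe sets. The called genes include the Argonaute gene alg-1, the forkhead gene let-381, the phospho-lyase homolog eppl-1 and the centrosomal protein homolog wdr-62 among those that rose, and iff-1, a homolog of the translation factor eIF5A, among those that fell. None of the 13 measured genes downstream of PAL-1 was called, which at the low shares above does not set them apart from other genes. The count of higher probe sets rested on a pie-1 array: without pie-1 replicate 2, 6 probe sets (0.0266%) were called higher and 3 (0.0133%) lower, and 5 of the 53 called before remained. A fit of only these 7 arrays called 0 in either direction in limma, with 1421 at an unadjusted p under 0.05. It has fewer residual degrees of freedom and takes the spread from these arrays, where the main fit takes it from all 40 groups. The SD of the 3 pie-1 arrays was 1.16 at alg-1, where the main fit gave an SE of 0.32. At eppl-1 the SD was 0.25 and the SE 0.26. In whole embryos, fewer cells that express a gene and less RNA per cell cannot be told apart.

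Several of the 7 arrays stood apart from the others. The correlation of pie-1 replicate 2 with the other pie-1 arrays was 0.920 to 0.928 over all probe sets, against 0.959 between replicates 3 and 4. Over the 3792 brighter probe sets, those with a mean of at least 5, it lay on average 0.50 below the mean of all arrays on the log2 scale. The corresponding value for pie-1/pal-1 replicate 4 was -0.41, and this array also had the largest gap between the 3' and 5' probe sets of its GAPDH control, 2.01 against 1.15 to 1.8 in the other 6. Array description files gave 1 scan day to pie-1/pal-1 replicates 1 and 2 and another to replicates 3 and 4. The pie-1 arrays at 186 min have no such file, so scan day and genotype cannot be told apart in this comparison. All 7 arrays correlated best with the 186 min time point, both of N2 and of their own genotype.

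The targeted gene was not called lower in the pie-1/pal-1 arrays. The brightest of 3 pal-1 probe sets read 6.39, 10.32, 5.44 and 6.12 in pie-1/pal-1 replicates 1 to 4 and 4.57, 6.25 and 6.38 in pie-1 replicates 2 to 4. The groups overlapped, with replicate 2 of pie-1/pal-1 far above all others and pie-1 replicate 2 lowest. The difference was 1.33 ± 0.86 (log2, SE), with an adjusted p of 0.538 and a 95% interval from -0.37 to 3.03. Without pie-1/pal-1 replicate 2 it was 0.25, and without pie-1 replicate 2 it was 0.75. Double-stranded RNA used for interference can itself be read by probes that match it, and its part in these levels was not tested.

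The other pal-1 probe sets were also highest in pie-1/pal-1 replicate 2. The next brightest read 3.76, 6.84, 3.83 and 3.42 in pie-1/pal-1 and 2.74, 4.13 and 4.24 in pie-1 embryos, a difference of 0.76 (adjusted p = 0.789). The dimmest read 3.34, 4.98, 3.38 and 3.46 against 3.90, 4.55 and 4.01, a difference of -0.37 (adjusted p = 0.89). Apart from replicate 2, the values of the dimmest probe set in pie-1/pal-1 all lay below those of pie-1. At earlier times pal-1 differed by -3.69, -4.13 and -3.08 at 0 min and by -3.47, -4.40 and -3.70 at 53 min, for the brightest, middle and dimmest probe set. At 41 min, between these, the differences were 0.84, 0.96 and 1.28. The lower values were not called, with adjusted p-values of 0.0654 to 0.271. The N2 means at 186 min were 6.70 ± 0.25 (SD, n = 3) for the brightest, 5.36 ± 0.12 for the next and 4.85 ± 0.02 for the dimmest, and mex-3/skn-1 embryos had 8.34 ± 0.14 (SD, n = 4) for the brightest. The pie-1 probe set lay near the floor in both groups, with means of 3.41 ± 0.11 (SD, n = 4) and 3.40 ± 0.15 (SD, n = 3), and in N2 at 3.79.

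Of the genes that act downstream of PAL-1, 0 of 13 were called higher and 0 of 13 lower, whether or not pie-1 replicate 2 was used. Among the 22548 probe sets tested, the corresponding shares were 0.217% and 0.0177%, or 0.0266% and 0.0133% without that array. With calls this rare, 0 of 13 does not set these genes apart. In limma's test with all arrays 1 of the 13 was higher (hlh-1) and 1 lower (tbx-9) at an unadjusted p under 0.05, which 2915 of all 22548 probe sets reached in either direction. This list overlaps genes that the study picked from these samples, so it is no independent evidence of a direction. The median difference of its 13 members was 0.21, against 0.01 over all probe sets. It became -0.06 without pie-1 replicate 2 and -0.06 after quantile normalization of the arrays, so the list showed no settled direction. The differences ran from -0.72 to 0.61.

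The muscle regulators did not move together, and hlh-1 was low in both groups. The MyoD homolog hlh-1 read 3.73, 4.35, 3.64 and 3.36 in pie-1/pal-1 and 3.26, 3.21 and 3.02 in pie-1 embryos. All 4 lay above the 3, as they did at 4.32% of all probe sets, yet the difference of 0.61 ± 0.25 missed the threshold (adjusted p = 0.263, 95% interval 0.10 to 1.11). The serum response factor homolog unc-120 read 5.39, 6.03, 4.07 and 4.97 against 5.08, 5.08 and 4.54, a difference of 0.21 (adjusted p = 0.836). The Hand homolog hnd-1, which acts in early muscle and gonad precursors, read 5.92, 5.70, 4.47 and 4.12 against 5.76, 5.91 and 5.20. Replicates 1 and 2 of pie-1/pal-1 lay within or just above the pie-1 range and replicates 3 and 4 below it, giving a difference of -0.57 ± 0.38 (adjusted p = 0.561).

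Of the epidermal regulators, elt-1 and nhr-25 showed the same division among the pie-1/pal-1 arrays. The GATA factor elt-1, which specifies the epidermis, read 5.75, 5.25, 4.31 and 3.58 in pie-1/pal-1 and 4.55, 4.45 and 4.61 in pie-1 embryos. The 3 pie-1 arrays lay within 0.2 of each other, between the higher and the lower pair of pie-1/pal-1 arrays, and the difference was 0.19 ± 0.41 (adjusted p = 0.901). The nuclear receptor gene nhr-25 read 5.81, 5.69, 4.87 and 4.70 against 3.81, 5.32 and 5.40, with 0.42 between the means (adjusted p = 0.504). The zinc finger gene lin-26 read 7.64, 7.16, 7.02 and 6.84 against 6.32, 7.09 and 7.36, a difference of 0.24 (adjusted p = 0.759). The differences of nhr-25 and lin-26 became -0.10 and -0.06 without pie-1 replicate 2. The GATA factor elt-3, which acts after elt-1, read 3.23, 3.12, 3.48 and 3.49 in pie-1/pal-1 and 3.02 to 3.10 in pie-1 embryos (0.27, adjusted p = 0.561), with replicates 3 and 4 the higher pair.

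Among the genes that pattern the posterior, the T-box gene tbx-9 read 5.41, 5.39, 4.85 and 3.95 in pie-1/pal-1 and 5.74, 5.79 and 5.34 in pie-1 embryos. Its difference of -0.72 ± 0.31 had a 95% interval from -1.34 to -0.10 and did not pass adjustment (adjusted p = 0.287). Its close relative tbx-8 differed by -0.19 (adjusted p = 0.833). The Wnt ligand gene cwn-1 read 3.04, 2.93, 2.88 and 3.17 against 3.56, 3.25 and 4.38. All 4 pie-1/pal-1 arrays lay below the 3 pie-1 arrays, as at 2.94% of all probe sets, but the standard error of 0.85 was larger than the difference of -0.72 (adjusted p = 0.788). The Hox gene nob-1 differed by 0.54 (adjusted p = 0.51) and by 0.03 without pie-1 replicate 2. The even-skipped homolog vab-7, with 0.27, and the Scratch-family zinc finger gene scrt-1, with 0.00, stayed near 3 and 4 on the log2 scale in both groups.

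**Figure D1:**
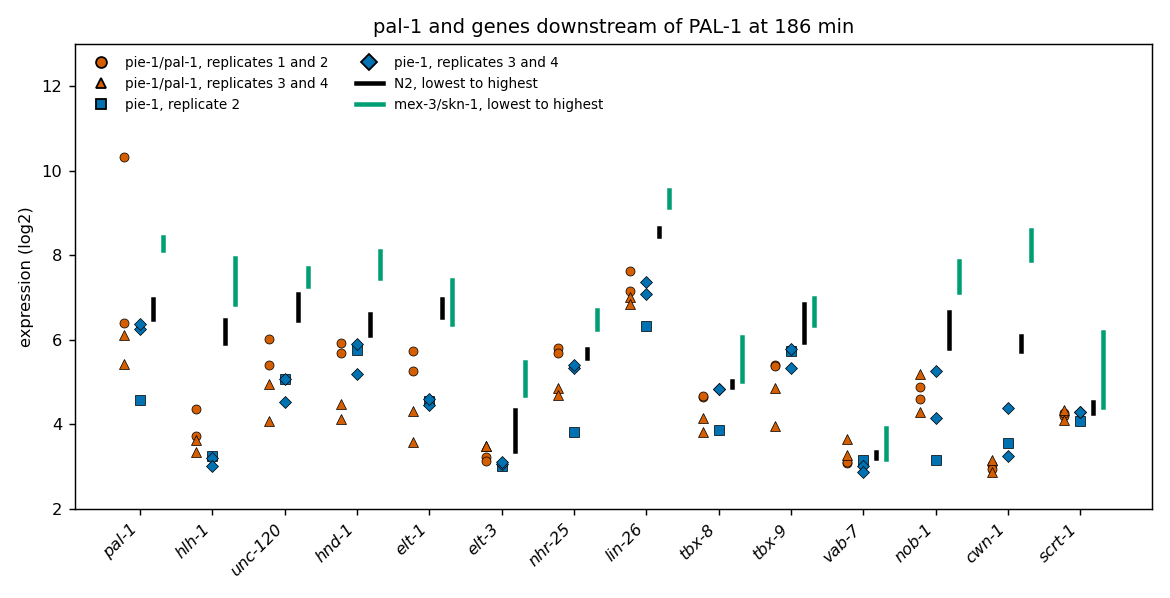
Expression (log2) of pal-1 and the 13 genes downstream of PAL-1 at 186 min, with 1 symbol per array for pie-1/pal-1 (orange) and pie-1 (blue) embryos and bars from the lowest to the highest array for N2 (black, 3 arrays) and mex-3/skn-1 (green, 4 arrays). Replicates 3 and 4 of pie-1/pal-1 lie below replicates 1 and 2 for elt-1, hnd-1 and nhr-25, and hlh-1 lies near 3 to 4 in both mutant groups.

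Several of these genes were lower than in N2 in both groups. The level of hlh-1 was 6.17 ± 0.28 (SD, n = 3) in N2 and 7.29 in mex-3/skn-1 embryos, which are known to make many C-like cells. Against N2, 8 of the 13 genes were called lower in pie-1/pal-1 embryos, where 1.41% of all probe sets were, and 5 of 13 in pie-1 embryos, where 1.93% were. The 5 were hlh-1, unc-120, elt-1, lin-26 and nob-1, and the 8 added hnd-1, cwn-1 and tbx-9. For hlh-1 the differences from N2 were -2.40 in pie-1/pal-1 and -3.01 in pie-1 embryos. For hnd-1 they were -1.38 (adjusted p = 0.0153) and -0.82 (adjusted p = 0.245). For tbx-9 they were -1.56 (adjusted p = 3e-04) and -0.84 (adjusted p = 0.125). Both comparisons share the N2 arrays, and the direct tests between the mutant groups given above were not passed by any of these genes.

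The pie-1/pal-1 arrays of the separate scan days differed from each other at more probe sets than the genotypes did. This split was examined after the values had been seen. It is not of scan day alone: replicate 3 was on another array lot, and replicate 4 had the largest GAPDH gap. Other differences between the samples cannot be told apart from scan day either. Replicates 3 and 4 were called lower than replicates 1 and 2 at 521 probe sets (2.31%) and higher at 10 (0.0443%), and the median difference of the brighter probe sets was -0.35. The PAL-1 downstream genes had a median of -0.55 in this contrast, with 9 of 13 below 0 and 0 called by limma, although 5 had an unadjusted p under 0.05. Over all probe sets 13.9% had such a p and 50.7% lay below 0, as did 73.8% of the brighter ones. Among the downstream genes elt-1 (-1.55), hnd-1 (-1.51) and unc-120 (-1.19) had adjusted p-values of 0.0855, 0.0754 and 0.0818. Against the pie-1 arrays, replicates 1 and 2 gave 129 probe sets called higher (0.572%) and 3 lower (0.0133%). Replicates 3 and 4 gave 39 higher (0.173%) and 28 lower (0.124%). The downstream genes had medians of 0.19 and -0.06 in these contrasts, with 4 and 3 of them at an unadjusted p under 0.05, as were 3291 and 2859 of the 22548 probe sets, and 0 called in either. With replicates 3 and 4 alone, hnd-1 was -1.32 (adjusted p = 0.159) and tbx-9 -1.22 (adjusted p = 0.103) from pie-1. At 122 and 143 min, where both scan days also hold pie-1/pal-1 arrays, the second day was called lower at 423 probe sets (1.88%) and higher at 0. There cwn-1 differed by -4.11 between the days, and the brightest, middle and dimmest pal-1 probe sets by -1.47, -2.34 and -3.05. The first and second day hold 3 and 1 of these arrays at 122 min and 1 and 2 at 143 min. At each time 1 of the days thus rests on a single array, and 1 array labelled 122 min has a description file that names 143 min.

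The genes with the largest rises in pie-1/pal-1 embryos were measured with pie-1 replicate 2 as the lowest array. The largest was alg-1, an Argonaute of the microRNA pathway, which read 6.62, 6.67, 6.89 and 7.48 in pie-1/pal-1 and 3.88, 5.41 and 6.15 in pie-1 embryos. All 4 values lay above the 3, and the difference was 1.77 ± 0.32, or 3.41-fold (adjusted p = 0.000474). Without pie-1 replicate 2 it was 1.14 (adjusted p = 0.153). The gene C33D9.5 differed by 1.60 and became 0.75, and pab-2, a poly(A)-binding protein gene, differed by 1.55 and became 0.97, neither called without that array. The gene tir-1, the homolog of the neuronal adaptor SARM1, read 7.05, 7.80, 6.80 and 7.32 against 4.95, 6.50 and 6.11, a difference of 1.39 ± 0.24 (adjusted p = 0.000301) that became 0.93 (adjusted p = 0.114). The amyloid precursor-like gene apl-1 differed by 1.26 (adjusted p = 7.4e-06), and by 0.98, just under 2-fold, without that array (adjusted p = 0.0111). The remaining genes among the 12 largest rises, C18C4.7, let-355, C17H11.6 and hlb-1, differed by 1.27 to 1.42 and none of them was called without that array.

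Several genes were called both with and without pie-1 replicate 2, though not in the fit of only the 7 arrays. The gene eppl-1, whose mammalian homolog cleaves phosphoethanolamine, read 6.92, 6.53, 6.78 and 5.93 in pie-1/pal-1 and 4.91, 5.31 and 5.38 in pie-1 embryos. The lowest pie-1/pal-1 array stood above the highest pie-1 array, and the difference was 1.34 ± 0.26 (adjusted p = 0.00109), or 1.20 (adjusted p = 0.0463) without the array. The gene let-381, a FoxF-type forkhead factor that acts in mesoderm derived from the MS founder cell, read 4.88, 5.40, 5.31 and 5.39 against 3.34, 4.01 and 4.47. The difference was 1.31 ± 0.19 (adjusted p = 7.4e-06), or 1.01 (adjusted p = 0.0111) without the array, and N2 embryos lay at 5.00 ± 0.47 (SD, n = 3), within the pie-1/pal-1 range. The homolog of the centrosomal protein WDR62, wdr-62, read 4.29, 4.10, 4.17 and 4.10 against 2.63, 3.17 and 2.94, where N2 had 2.96 and mex-3/skn-1 2.54. With a difference of 1.25 ± 0.11 it had the smallest adjusted p of the 4 (3.49e-15), and 1.11 (adjusted p = 1.47e-10) without the array. A probe set annotated to several genes, and so not named, rose by 1.24 and by 1.18 without the array.

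**Figure D2:**
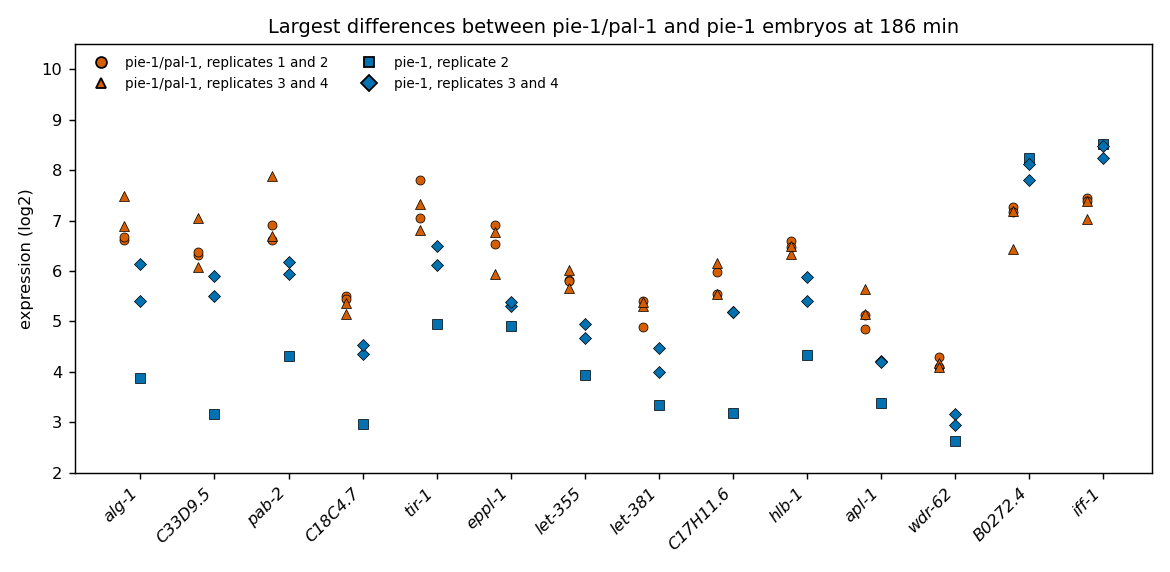
Expression (log2) in each array at 186 min of the 12 genes with the largest rises and the 2 with the largest falls among called probe sets whose groups did not overlap, for pie-1/pal-1 (orange) and pie-1 (blue) embryos. The square, pie-1 replicate 2, is the lowest of the 7 arrays for all 12 rises shown.

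Across all 49 probe sets called higher, pie-1 replicate 2 was the lowest of the 7 arrays for 48, and it was the lowest for 25.5% of all probe sets. These shares are not like for like, since a probe set called higher has low pie-1 values by selection. Without pie-1 replicate 2 the median difference of the 49 went from 1.14 to 0.81 and all 49 stayed above 0, although the same remaining arrays had helped to choose them. Of the 49, 9 had overlapping groups. Leaving out pie-1 replicate 3 or 4 instead gave 88 and 205 probe sets called higher and 4 and 14 lower, and leaving out pie-1/pal-1 replicate 1 gave 7 lower. Leaving out pie-1 replicate 2 also brought in 4 probe sets that had not been called: the hedgehog-related gene wrt-10 (-1.11), the thioredoxin-domain gene txdc-12.1 (-1.24), the myosin VI gene spe-15 (1.01) and the UDP-glycosyltransferase gene ugt-12 (1.18). The direction of calls depended on scaling: 92.5% of the calls were higher in the deposited values, 91.8% after centring on array medians, 67.6% (23 of them higher, 11 lower) once the arrays were quantile normalized, and 68.2% (15 higher, 7 lower) when they were centred on the brighter probe sets. The last of these moved the median of all probe sets from 0.01 to -0.13.

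**Figure D3:**
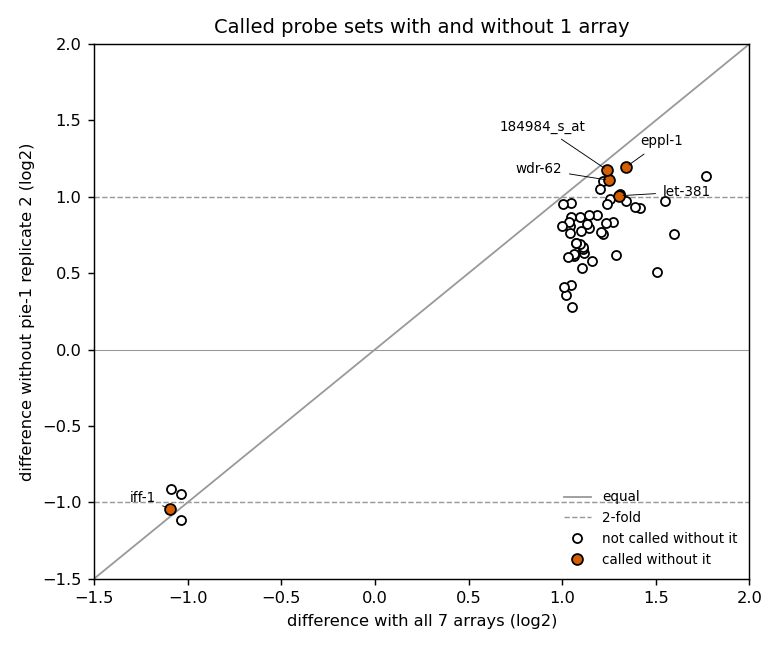
Difference between pie-1/pal-1 and pie-1 embryos (log2) of the 53 called probe sets with all 7 arrays (horizontal axis) and without pie-1 replicate 2 (vertical axis), with the line of equal values and dashed lines at 2-fold. The probe sets called higher lie mostly below the line, and the 5 filled circles are those also called without that array.

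Probe sets of a called gene often gave different values. The 49 probe sets included 46 with 1 gene symbol, which stand for 45 genes. Of these genes 36 have other probe sets, and apl-1 alone had another that was called (1.02), which became 0.36 without pie-1 replicate 2. The remaining apl-1 probe set lay near the floor, at 2.77 to 3.47. The other probe sets of wdr-62 differed by 0.64, 0.23 and 0.25, and that of let-381, with values from 2.83 to 3.40, by 0.01. For alg-1 the others differed by 0.83 and 0.68. The endoderm regulator elt-2 differed by 1.05 at the dimmer and by -0.13 at the brighter of its probe sets, and the brighter read 6.37, 5.97, 5.59 and 4.93 against 5.56, 5.88 and 6.09. Of the 49 probe sets, 39 (79.6%) lie in a run of 3000 consecutively numbered probe sets, 13.3% of all, that was picked out after the calls were seen. The median difference in that run was 0.17, against -0.003 outside it, and 0.05 in the run without pie-1 replicate 2. What distinguishes these probe sets on the array was not tested.

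The 4 probe sets called lower in pie-1/pal-1 embryos were 1 each of iff-1, B0272.4, dhs-18 and acdh-1. The gene iff-1, which acts in the germline, read 7.45, 7.38, 7.38 and 7.04 in pie-1/pal-1 and 8.51, 8.48 and 8.23 in pie-1 embryos. All 4 values lay below the 3, and the difference was -1.09 ± 0.22 (adjusted p = 0.00191), or -1.04 (adjusted p = 0.039) without pie-1 replicate 2. At 41 min iff-1 had also been called lower, by -1.003 (adjusted p = 0.00297), and it differed by -0.76 at 122 and -0.60 at 143 min. Its 186 min difference exceeded that at 0 to 41 min by -0.65, which was not called (adjusted p = 0.267). Its level was 7.67 ± 0.07 (SD, n = 3) in N2 and 8.43 ± 0.15 (SD, n = 4) in mex-3/skn-1 embryos, so the pie-1 mean of 8.41 lay above N2 and the pie-1/pal-1 mean of 7.31 below. The gene B0272.4 read 7.27, 7.17, 7.18 and 6.44 against 8.23, 8.13 and 7.80, a difference of -1.04 (adjusted p = 0.0279). The other genes were named because only 4 fell, and their groups overlapped. The short-chain dehydrogenase gene dhs-18 read 7.00, 5.98, 5.65 and 5.29 against 7.42, 6.92 and 6.87 (-1.09, adjusted p = 0.0206). The acyl-CoA dehydrogenase gene acdh-1 read 3.25, 2.77, 4.09 and 4.82 against 4.61, 4.00 and 5.69 (-1.04, adjusted p = 0.0153). Its N2 mean was 8.17, well above both groups. Of these 4, iff-1 alone was called without pie-1 replicate 2.

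Lists of tissue and pathway genes held few calls. By the brightest probe set of each gene, 1 of 39 neuronal genes, 1 of 26 Wnt genes and 1 of 38 genes of RNA interference pathways were called higher, 0 were called lower, and the other 14 lists held 0 calls in either direction. Among the 22548 probe sets tested, the corresponding shares were 0.217% for rises and 0.0177% for falls. A single call per list is too few to compare with these shares. The medians of the neuronal, Wnt and RNA interference lists were 0.14, 0.20 and 0.15 against 0.01 over all probe sets. No list held a call without pie-1 replicate 2. The neuronal gene was the homeobox gene ceh-10, which read 6.44, 5.83, 5.81 and 5.90 against 3.87, 5.72 and 4.75, a difference of 1.22 ± 0.20 (adjusted p = 0.000154) that became 0.76 (adjusted p = 0.109). The Wnt gene was the ligand cwn-2, with 1.14 ± 0.28 (adjusted p = 0.0248) and 0.88 (adjusted p = 0.292) without that array. The RNA interference gene was alg-1. Other probe sets of the neuronal genes sox-2 (1.10, adjusted p = 0.0153) and ceh-37 (1.01, adjusted p = 0.016) were also called higher. So was another probe set of the Wnt gene dsh-1 (1.04, adjusted p = 0.0279). Without pie-1 replicate 2 these differed by 0.78, 0.41 and 0.84, none called.

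Among 20 endoderm genes 3 passed the adjusted p at less than 2-fold, where 0.639% of all probe sets passed it as higher at any size. They are named after their values were seen. The vacuolar ATPase subunit gene vha-6, which serves the apical gut membrane, read 4.36, 3.92, 4.12 and 4.51 in pie-1/pal-1 and 3.43, 3.27 and 3.20 in pie-1 embryos. Its groups did not overlap, and its difference of 0.93 ± 0.16 (adjusted p = 0.000281) was 0.99 without pie-1 replicate 2 (adjusted p = 0.00284). The gut esterase gene ges-1 read 4.66, 4.45, 4.27 and 4.62 against 3.24, 3.51 and 4.25, a difference of 0.83 (adjusted p = 0.000473) that became 0.62 (adjusted p = 0.0932). The actin-regulating gene eps-8 differed by 0.82 (adjusted p = 0.0218) and by 0.51 without that array (adjusted p = 0.443). At 143 min the same genes differed by 0.47, -0.14 and 0.07. Of the 20 genes 7 lay below 0, and 9 did when arrays were centred on the brighter probe sets. The median of the endoderm list was 0.17, 0.03 with that centring, and 0.12 without pie-1 replicate 2. Its mean level was 4.11 to 4.21 in pie-1/pal-1, 3.77 to 4.11 in pie-1, 3.98 to 4.08 in N2 and 3.64 to 3.70 in mex-3/skn-1 arrays.

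By the brightest probe set of each gene, the other lists gave no call in limma's test, while 1 other probe set of an MS and pharynx gene (tbx-2) and 1 of a cell division gene (cyd-1) were called higher. An unadjusted p under 0.05 in that test, counted for each list below, was reached by 2915 of all 22548 probe sets in either direction. Body muscle structural genes had a median of 0.05 over 43 genes, with 4 higher and 1 lower at an unadjusted p under 0.05. Epidermal genes had 0.10 over 33 genes (1 higher, 0 lower at that p), genes of the MS lineage and pharynx 0.01 over 26 (3 and 0) and germline genes 0.01 over 37 (1 and 1). The 6 Hox genes had a median of 0.22 and the 13 Notch targets and T-box genes of the AB lineage 0.11, with 0 at that p in both lists. Medians were 0.17 for 41 cell division genes (5 and 0), 0.07 for 25 basement membrane genes (7 and 1), 0.21 for 25 cell death genes (3 and 1) and 0.16 for 21 stress genes (1 and 0). The adjusted p alone was passed by 1 cell division gene and 2 basement membrane genes, all higher at less than 2-fold. Without pie-1 replicate 2 the medians of these 4 lists were 0.029, 0.055, 0.063 and 0.066. The mean level of the muscle list was 4.00 to 4.17 in pie-1/pal-1 and 3.95 to 4.02 in pie-1 arrays. The list of adult soma and sperm genes stayed near the floor, at 3.22 to 3.39 and 3.21 to 3.64, with a median difference of -0.07 over 30 genes (0 and 1 at that p). Ribosomal protein genes had a median of -0.23, with 55 of 62 below 0, 4 lower at an unadjusted p under 0.05 and 0 called, and the median stayed negative under each of the other scalings tried. Their mean level was 9.28, 9.24, 9.28 and 8.79 in pie-1/pal-1 and 9.50, 9.31 and 9.34 in pie-1 arrays. Replicate 4 of pie-1/pal-1 was lowest and pie-1 replicate 2 highest. The median without the latter was -0.175, and the part of the former was not tested.

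The same genotypes were compared at 101, 122 and 143 min on arrays not used at 186 min. There 2 (0.00887%), 69 (0.306%) and 5 (0.0222%) probe sets were called, and 1, 6 and 1 of these were also called at 186 min in the same direction, which is 1.89%, 11.3% and 1.89% of the 53 and 50%, 8.7% and 20% of each other list. Of the 49 probe sets called higher at 186 min, 35, 48 and 43 lay above 0 at these times, where 52.1%, 50.5% and 49.3% of all probe sets did. Their median differences were 0.14, 0.52 and 0.51. Of the pie-1/pal-1 arrays at 122 min, 3 were of the first scan day and 1 of the second. Over 122 and 143 min the second day read lower at 81.1% of the brighter probe sets. The part of scan day in the shared direction was not tested. At 122 min 1 pie-1/pal-1 array has a description file that names 143 min, and 27 rather than 69 probe sets were called without it.

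Over the mean of 101, 122 and 143 min, a contrast added after the values had been seen, 8 probe sets (0.0355%) were called higher and 4 (0.0177%) lower, and 2 of these 12 were also called at 186 min. These were eppl-1 and the UDP-glycosyltransferase gene ugt-46. The level of eppl-1 in pie-1/pal-1 embryos was 6.20 at 101 min, 6.72 at 122 min and 6.34 at 143 min, against 5.15, 5.21 and 5.15 in pie-1 embryos, and its difference over these times was 1.25 ± 0.16 (adjusted p = 8.29e-08). The 186 min difference, on separate arrays, exceeded this by 0.09 ± 0.30 (adjusted p = 0.984). The difference of ugt-46 was 1.73 over these times and 1.10 ± 0.29 at 186 min (adjusted p = 0.0431), where its groups overlapped, and another of its probe sets gave 1.26 and then 0.11. Other genes called higher at 101 to 143 min were ncam-1, EEED8.2, dpy-31, asp-4 and acs-14. Among them ncam-1, a neural cell adhesion homolog, still differed by 0.94 at 186 min (adjusted p = 0.0489), and acs-14, an acyl-CoA synthetase gene, by -0.52 (adjusted p = 0.427).

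Of the genes downstream of PAL-1, hnd-1 was called lower over 101 to 143 min, with -1.05 ± 0.24 (adjusted p = 0.017). Its level was 5.27, 4.59 and 4.28 in pie-1/pal-1 embryos at the 3 times and 6.46, 5.72 and 5.10 in pie-1 embryos. At 186 min the corresponding means were 5.05 ± 0.89 (SD, n = 4) and 5.62 ± 0.37 (SD, n = 3). The change from the earlier mean to 186 min, 0.48 ± 0.45, was not called (adjusted p = 0.879). At 0, 23, 41, 53, 66 and 83 min hnd-1 differed by -0.69, -0.72, -0.45, -0.78, -0.74 and -0.09, none of them called. The other genes called lower at 101 to 143 min were T22B7.3 (-1.28), spp-10 (-1.23) and sdz-27 (-1.47), which lay between 2.75 and 4.07 in all 7 arrays at 186 min.

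**Figure D4:**
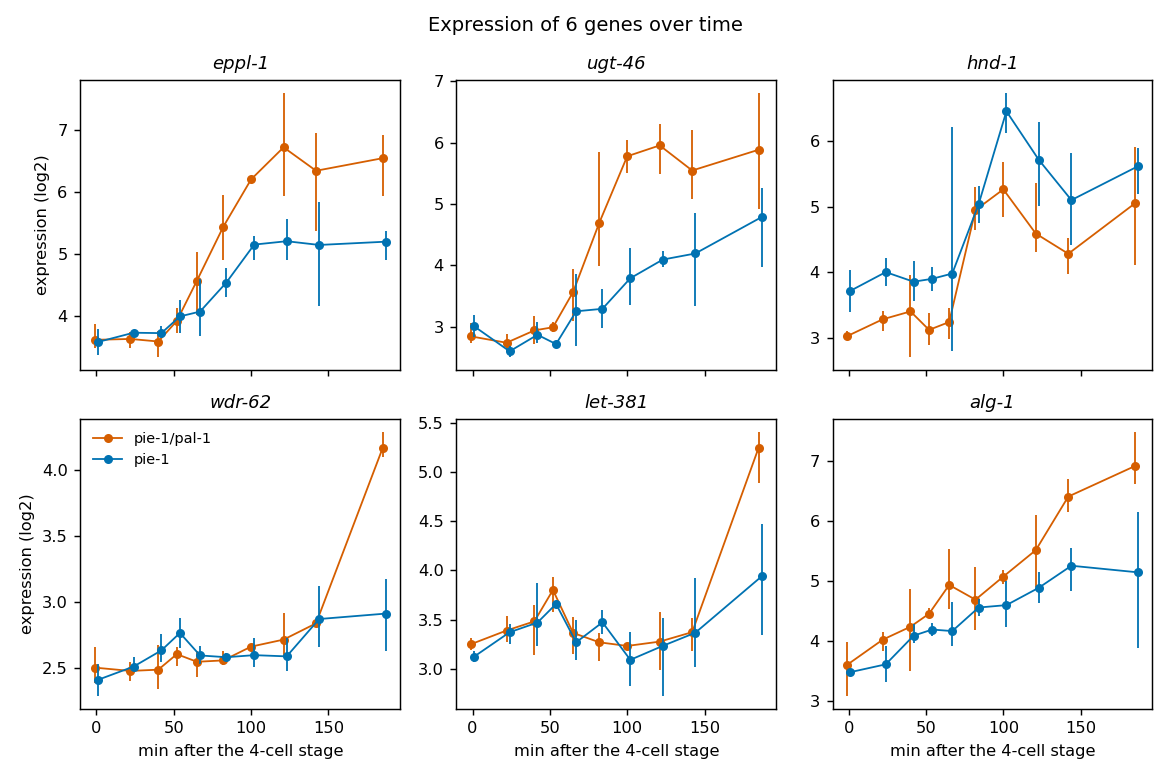
Mean expression (log2) of 6 genes against min after the 4-cell stage in pie-1/pal-1 (orange) and pie-1 (blue) embryos, with bars from the lowest to the highest array of each group of 2 to 4. The groups of ugt-46 are apart at 101, 122 and 143 min and overlap at 186 min. Those of eppl-1 are apart at 101, 122 and 186 min and overlap at 143 min. The called probe sets of wdr-62 and let-381 differ at 186 min and have means within 0.2 of each other at 101, 122 and 143 min.

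The called probe sets of let-381 and wdr-62 differed at 186 min and were not called at the nearest times. They and the others in this paragraph were picked by their 186 min values, which the excess given below uses again. At 143 min let-381 stood at 3.37 in both groups and wdr-62 at 2.84 and 2.87. These levels were near or below the array medians of 3.24 to 3.41, where a difference could go unseen. For let-381 the 186 min difference exceeded that at 101 to 143 min by 1.24 ± 0.23 (adjusted p = 0.002) and for wdr-62 by 1.20 ± 0.13. A brighter wdr-62 probe set differed by 0.43 at 122, 0.49 at 143 and 0.64 at 186 min, none called. Its excess was 0.30 (adjusted p = 0.834). For ceh-10 the excess was 1.26 (adjusted p = 0.004), and for the fall of B0272.4 it was -1.48 (adjusted p = 0.012) and for that of dhs-18 -1.63 (adjusted p = 0.004). The last of these was called higher at 122 min, by 1.15 (adjusted p = 0.013). For alg-1 the difference was 0.47 at 101, 0.62 at 122 and 1.15 at 143 min, none called, and the excess at 186 min was 1.02 (adjusted p = 0.399).

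The 186 min difference was also set against the mean difference at 0, 23 and 41 min, when most transcripts are maternal. It was larger, in the direction of higher levels in pie-1/pal-1 embryos, at 26 probe sets (0.115%), and lower at 0, where 2674 probe sets had an unadjusted p under 0.05 in either direction. Of the 26, 14 had been called at 186 min, among them wdr-62, let-381, eppl-1, tir-1, apl-1, alg-1 and ceh-10. Both contrasts use the same arrays at 186 min, so this overlap is no separate evidence. The other 12 all had a mean early difference below 0, from -1.03 to -0.25, and 5 of them had been called lower at 41 min. At that time 264 probe sets (1.17%) were called lower in pie-1/pal-1 embryos and 31 (0.137%) higher. Without pie-1 replicate 2 the count was 6, and without pie-1 replicate 3 or 4 it was 58 and 153.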

How the data were processed

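Levels were measured on Affymetrix C. elegans arrays. The authors deposited log2 values with 1 entry per probe set and array. The log2 scale was read from the range of 1.79 to 12.72, and array medians were 3.24 to 3.41. Probe summary and array scaling are steps not given in the sources used here. The number of arrays limits the precision. After 77 controls were left out of the table, 22548 probe sets were tested. The platform's table gave 1 gene symbol to 20766 of them, several to 887 and none to 895, and 20701 matched the RefSeq gene table.

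A mean for each of 40 groups of genotype and time was fitted to all arrays of the series with limma 3.58.1 in R 4.3.3, using lmFit and eBayes (constant prior variance), which left 83 residual degrees of freedom. Errors are standard errors of that fit unless SD is stated, and p-values are two-sided, with Benjamini-Hochberg adjustment across the 22548 probe sets. Named are all probe sets of pal-1 and pie-1, every PAL-1 downstream gene, up to 12 rises and up to 12 falls, taken by size from called probe sets with 1 symbol and groups that do not overlap, and up to 6 called genes of each other list. The brightest probe set stands for a gene in a list. The comparison, the 17 gene lists and the thresholds were chosen with earlier results of these data known. The lists are PAL-1 downstream genes, body muscle structure, epidermis, endoderm, MS lineage and pharynx, neurons, Hox genes, Wnt signalling, Notch targets and T-box genes of AB, germline and P granules, cell division, basement membrane, cell death, RNA interference, stress, adult soma and sperm, and ribosomal proteins. In simulated data for the 186 min comparison over 22548 probe sets, 98.5% of 67 changes of 1.5 (log2) were called, as were 100% of changes of 2 and of 3, with 3 false calls. The simulated noise was independent between probe sets, without shifts of whole arrays or scan days. Its size was the residual SD of each probe set over all 40 groups, and at some probe sets the pie-1 arrays at 186 min spread more widely. Changes smaller than 1.5 were not simulated. These shares therefore do not cover such shifts, such a wider spread or smaller changes.

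Equal replicate numbers did not pair the arrays: deviations from the group means correlated at -0.06, 0.01 and -0.14 for numbers 2, 3 and 4. Alternatives covered scaling, a filter on dim probe sets, the arrays fitted, the prior variance, the fold minimum, scan day, RNA quality, and each array left out.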

Additional observations from a re-analysis of the deposited data

Results flagged for a closer look

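Dixon's test was applied to the 4 pie-1/pal-1 arrays of 42 probe sets and set 1 array apart in 5 of them, where chance gives about 1 in 20. Replicate 2 was high at 2 pal-1 probe sets, with 6.84 at the one of middle brightness and 4.98 at the dimmest. Replicate 4 was low at B0272.4 (6.44) and at iff-1 (7.04), and replicate 1 was high at ceh-10 (6.44).

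The difference between pie-1/pal-1 and pie-1 embryos at 186 min exceeded that at 0 to 41 min, by the test of the difference itself, at 11 of the named probe sets. All 11 were named for their 186 min difference, and the excess uses the same arrays, so it is no separate evidence. The excess on the log2 scale was 1.54 for alg-1, 1.42 for C17H11.6, 1.41 for eppl-1, 1.40 for tir-1, 1.28 for C18C4.7, 1.28 for wdr-62, 1.28 for let-355, 1.25 for let-381, 1.23 for ceh-10, 1.21 for apl-1 and 1.19 for the probe set with several gene symbols. No named probe set showed an excess in the other direction at the threshold.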

How the results depend on the processing

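The count of probe sets called at 186 min (49 higher, 4 lower) moved with most settings. It was 23 and 11 after quantile normalization, 15 and 7 after centring on brighter probe sets, 144 and 63 with no fold minimum, and 23 and 1 with scan day as a random block, where the correlation within a day was 0.116. It was 98 and 3 with pie-1/pal-1 replicates 1 and 2 alone in the fit and 38 and 18 with replicates 3 and 4 alone. In the fit of only the 7 arrays it was 0 and 0, with 1421 probe sets at an unadjusted p under 0.05 in limma. That fit has fewer residual degrees of freedom and takes the spread from those arrays alone. Leaving out each array in turn gave 6 to 205 higher and 3 to 14 lower. Without both pie-1 replicate 2 and pie-1/pal-1 replicate 4, an alternative chosen after seeing the data, it was 13 and 1. Leaving out dim probe sets gave 63 and 6 and the GAPDH covariate 41 and 6, within 1.5 times for each count. The replicate block, in which numbers 2, 3 and 4 pair the arrays, gave 0 and 0 in limma with 959 probe sets at an unadjusted p under 0.05, and 1.56 for pal-1, on 6 arrays whose numbers did not pair them in the check.

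The count for 186 min against the early times (26) was 14 after quantile normalization, 0 after centring on brighter probe sets and 6 to 153 with an array left out. At 101 min (2) it was 1 after centring on brighter probe sets and 4 with an intensity trend, and at 143 min (5) it was 16 after quantile normalization and 3 after centring on array medians. At 122 min (69) it was 27 without the array described as 143 min, chosen after seeing the data. The cause of these moves was not tested.

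The difference at the brightest pal-1 probe set stayed positive, from 0.04 with replicates 3 and 4 to 2.62 with replicates 1 and 2, and was called under none of the settings.

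Among single genes, those that changed sign were not called in the main comparison. After quantile normalization unc-120 was -0.0635, elt-1 -0.1405, scrt-1 -0.1223 and the dimmer lin-26 probe set -0.0569. After centring on brighter probe sets scrt-1 was -0.1403 and pie-1 -0.1279. Under the replicate block elt-1 was -0.154, the dimmer lin-26 probe set -0.173, the dimmer nhr-25 probe set -0.0957 and pie-1 -0.0126, and with scan day as a random block pie-1 was -0.0188. With replicates 1 and 2, tbx-8 was 0.1525, hnd-1 0.1886, the dimmest pal-1 probe set 0.0037 and pie-1 -0.0241. With replicates 3 and 4, nhr-25 was -0.0599 and -0.2509 at its probe sets, unc-120 -0.3821, elt-1 -0.5898, scrt-1 -0.0074, the dimmer lin-26 probe set -0.3726 and the middle pal-1 probe set -0.0782. Without both arrays that stood apart scrt-1 was -0.1057, the dimmer elt-3 probe set -0.0308, a dim nob-1 probe set -0.0185 and pie-1 -0.0688. With 1 array left out, the ranges that crossed 0 were -0.154 to 0.569 for elt-1, -0.0605 to 0.461 and -0.173 to 0.478 for the lin-26 probe sets, -0.0957 to 0.701 and -0.0957 to 0.328 for those of nhr-25, -0.217 to 0.0489 for a dim nob-1 probe set, -0.0321 to 1.107 for the middle pal-1 probe set, -0.0429 to 0.0997 for pie-1, -0.0689 to 0.0431 for scrt-1 and -0.09 to 0.562 for unc-120. Of the other values of named probe sets, 658 kept their direction and side of the threshold, and the rest kept the direction but were no longer called.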
